A study of Ovis aries with 12 samples.

Results

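The transcript that runs from miR-17 to miR-92a, MIR17HG in human, is a polycistronic RNA from which miR-17 and miR-18a, then miR-19a and miR-20a, and last miR-19b and miR-92a are cut. Its members were taken here as all array probes whose name, without the species prefix, the variant suffix and the arm, is 1 of these 6 names, which gave 15 probes of 3091 (6 names of 1907). Of these, 9 carry the exact sequence of a listed miRNA and 6 carry a sequence variant, and none shares its sequence with another probe. miRNA were measured in left ventricles, as total RNA from 12 Merino sheep, all described as normally developing controls, with 3 animals at each of 4 ages on a custom single-colour (Cy3) array. F91 denotes fetuses of 91 days by their titles (90 days by their stage field), F140 fetuses of 141 days, P5 lambs of 5 days and P173 sheep of 173 days. F91 replicate 3 was male and all others were female. All P5 lambs were twins, as was F140 replicate 2, and every other animal was a singleton, so that at P5 twin birth and age cannot be told apart. The names of the arrays of P5 replicates 1 and 2 differ by a final letter, and whether these lambs were co-twins is not stated. The tissue was not separated into cell types, so fewer cells of a type and less miRNA per cell cannot be told apart.

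The transcript is switched on by MYC and E2F factors, and its members are known for promoting cell division. In mice, loss of the transcript causes defects of the heart and lungs, and its forced expression in cardiomyocytes drives their proliferation. Each mature miRNA recognises its target mRNA mainly through its seed, bases 2 to 8 from its 5′ end, and by seed the members fall into the families of miR-17, miR-18, miR-19 and miR-92a. miR-17 and miR-20a restrain cell-cycle inhibitors and E2F factors, and miR-92a limits vessel growth in mouse. Mature miR-19b and miR-92a are also made from the miR-106a-363 transcript, a paralog, so that the array reads the sum of both sources for these members. In the RefSeq gene table of sheep (ARS-UI_Ramb_v3.0), which holds 2 of the 6 names, MIR17 and MIR19B neighbour each other, and the gene after them is GPC5.

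The sequences against which the probes of the 6 members were designed are shown because the profiles over age are described by seed, given in capitals:
miR-17: cAAAGUGCuuacagugcaggua
miR-20a: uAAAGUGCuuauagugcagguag
miR-18a: uAAGGUGCaucuagugcagaua
miR-19a: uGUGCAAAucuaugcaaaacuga
miR-19b: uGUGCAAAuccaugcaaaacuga
miR-92a: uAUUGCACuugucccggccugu
Over the 22 positions compared, counted from 1 at the 5′ end, miR-20a differs from miR-17 at C1U and C12U. miR-19b differs from miR-19a only at U11C. Such near-identical targets may bind each other's probes, and how far they did was not tested. The GC content was 34.8% for miR-19a, 39.1% for miR-19b and miR-20a, 40.9% for miR-18a, 45.5% for miR-17 and 54.5% for miR-92a.

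Values are intensities as normalised by the authors, linear and in arbitrary units, with 3 spots behind each member probe, and between 906 and 1064 probes of an array read at least 32 units. A probe whose 3 arrays of an age all read under 32 units was treated as not above background at that age. Of the 15 member probes, 7 read at least 32 units on all 3 arrays of some age, and these are called measured. They stood for miR-17, miR-20a (2 probes), miR-19b (2 probes) and miR-92a (2 probes). A further 7 never reached 32 units, with 29 units as their highest value, and 1 did so on a single array. These 8 probes were both probes of miR-18a's main arm, both of miR-19a's main arm, and the probes of the opposite arms of miR-17, miR-18a, miR-19a and miR-20a. The levels of different probes were not compared, since signal also depends on the probe.

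Changes with age were tested with limma on log2(value + 0.1), with all 12 arrays in 1 fit, and a probe was called at an adjusted p (Benjamini-Hochberg over 3091 probes) of at most 0.05. Fold changes are on that scale and standard errors come from that fit. Over the 4 ages 7 of the 15 member probes were called, against 8.7% of all probes and 25.3% of the 775 brighter probes (mean of 100 units or more). These were the 7 measured probes, which represent 4 of the 6 names, and probes of 1 name are not independent. The mean was highest at F140 for miR-19b, miR-17 and miR-20a, although the step from F91 to F140 did not pass the test for oar-miR-17-5p or bta-miR-20a, and for miR-92a it declined from F91 to P173.

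**Figure D1:**
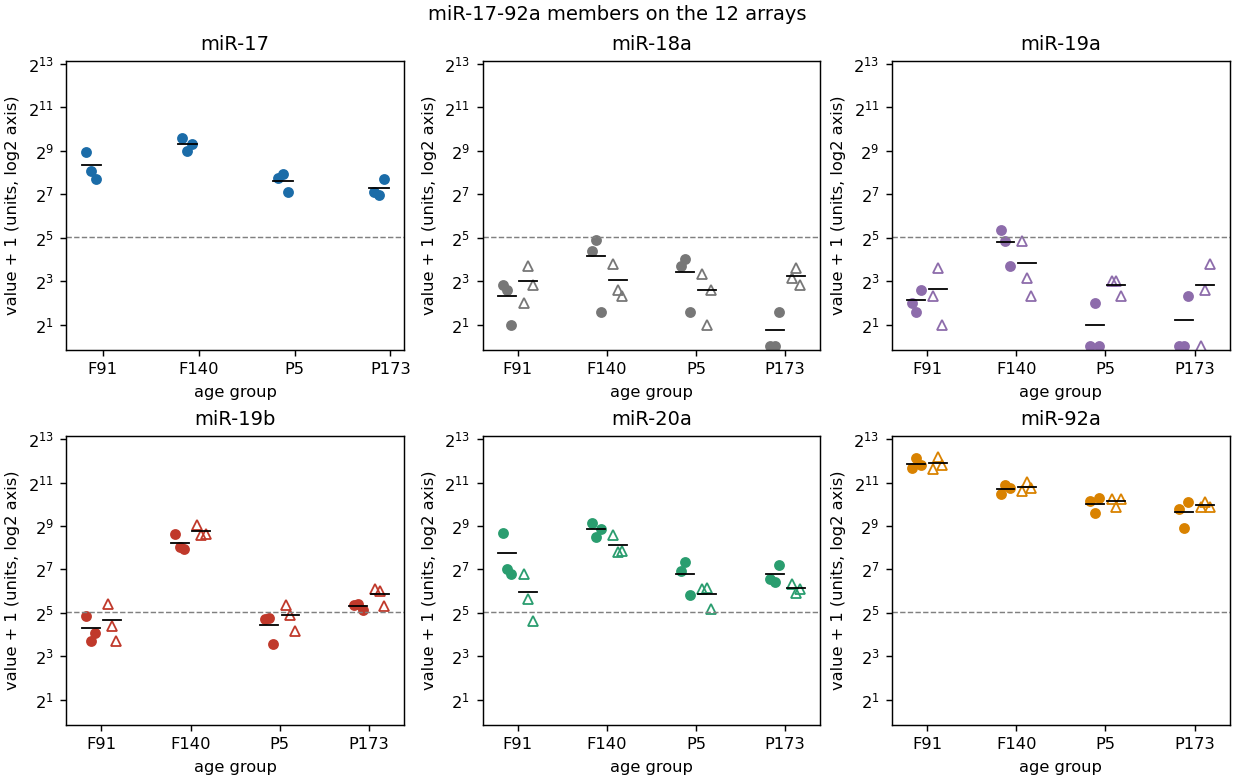
Values plus 1 (log2 axis, units) of the probe of each miRNA (filled circles) and of a variant probe of the same arm (open triangles, where the array has one) on each of the 3 arrays of F91, F140, P5 and P173. Short lines are means, and the dashed line marks 32 units. The F140 points of the ovine miR-19b probe (242 to 397 units) lie above its points of all other ages (41 at most), as do those of its variant (382 to 524 units, 67 at most at other ages), whereas miR-92a is highest at F91 (3236 to 4430 units).

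miR-19b had its highest level at F140, and at F91 and P5 its ovine probe was not above background. The ovine probe, oar-miR-19b, read 28, 12 and 16 units in the 3 F91 hearts and 397, 258 and 242 units in the F140 hearts. At P5 it read 25, 26 and 11 units, and at P173 it read 40, 41 and 34 units. Every F140 heart was thus above every heart of another age, no F91 or P5 heart was above background, and all 3 P173 hearts were just above it. From F91 to F140 the level rose at least 9.11-fold (fitted log2 change 4.05, standard error 0.50, limma, adjusted p = 0.00134). From F140 to P5 it fell again, at least 9.11-fold (fitted log2 change -3.91, standard error 0.50, limma, adjusted p = 0.00308). P173 hearts read at least 1.20-fold above P5 hearts without overlap, but this did not pass the test (adjusted p = 0.503 with limma), nor did P173 against F91 (adjusted p = 0.258).

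The equine variant of miR-19b, eca-miR-19b_R+1_1ss23AT, has the substitution A23U against the ovine sequence and 1 further base at its 3′ end. It read 42, 20 and 12 units at F91, 524, 382 and 396 at F140, 40, 29 and 17 at P5 and 67, 64 and 39 at P173. Again the F140 hearts stood above all others, the other ages overlapped, and P173 was the other age with all 3 arrays at 32 units or more. It rose by 4.31 (standard error 0.52, limma, adjusted p = 0.00134) on the log2 scale to F140 and fell by 3.99 (standard error 0.52, limma, adjusted p = 0.00308) to P5. Only 1 of its arrays reached 32 units at F91, and 1 at P5, so these sizes rest on values near background. Over the 12 arrays the log2 values of both probes had a Pearson correlation of 0.983, a description of probes that share nearly all of their sequence. The fall to P5 was called on both probes in all 26 alternatives. The rise to F140 was called on both in all of its 28 alternatives but the fit of F91 and F140 alone with the replicate number as a block, chosen after seeing the data, where adjusted p in limma was 0.0815 and 0.0845. With the trend of the values with GC content also removed from that fit it was 0.0152 and 0.0148. Over its alternatives the fitted rise of oar-miR-19b, whose size rests on F91 values below background, ran from 1.91 to 4.59, the lowest from scanner intensities normalised afresh with an offset of 50 units. For the equine variant the rise ran from 2.41 to 4.78 and the log2 change to P5 from -4.27 to -2.30. These scanner intensities again gave the smallest changes. With each array left out in turn, the highest adjusted p was 0.0129 for the rise and 0.0338 for the fall.

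miR-19a, which differs from miR-19b by a single base, stayed near background. Its bovine probe read 3, 2 and 5 units at F91, 40, 28 and 12 at F140, 0, 3 and 0 at P5 and 0, 0 and 4 at P173. The F140 hearts were the highest and did not overlap those of any other age, but only 1 array reached 32 units. No fold is given, and neither step passed the test (limma, adjusted p = 0.47 for F140 against F91 and 0.0934 for P5 against F140). miR-18a, which shares its seed with the paralog miR-18b, read 6, 5 and 1 units at F91, 20, 29 and 2 at F140, 12, 15 and 2 at P5 and 0, 0 and 2 at P173. It was not above background at any age, and its ages overlapped.

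miR-17, the first miRNA of the transcript, was also highest at F140. oar-miR-17-5p read 488, 268 and 207 units at F91 and 769, 515 and 645 units at F140. At P5 it read 215, 244 and 135 units and at P173 137, 123 and 210 units. The F140 hearts did not overlap those of any other age, although F91 replicate 1, at 488 units, came close. From F140 to P5 miR-17 fell 3.30-fold (log2 change -1.72, standard error 0.39, limma, adjusted p = 0.0408). The 2.11-fold higher level at F140 than at F91 did not pass the test (limma, adjusted p = 0.146), nor did P173 against P5 (0.811) or P173 against F91 (0.193). The call from F140 to P5 was kept without F91 replicate 1 or 3 and was lost in the 10 other fits of 12 that left out 1 array (adjusted p up to 0.203). It was also lost with the replicate number as a block over all ages (adjusted p = 0.0501 in limma, and 0.0529 with the GC trend removed as well).

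miR-20a shares its seed with miR-17. bta-miR-20a read 410, 129 and 108 units at F91, 566, 360 and 471 at F140, 119, 159 and 55 at P5 and 93, 85 and 147 at P173. F140 hearts were above all P5 and P173 hearts, while F91 replicate 1 lay within the F140 range. Its change over the 4 ages passed the test (limma, adjusted p = 0.0434), and that call was lost in 8 of the 12 fits without 1 array and with the replicate number as a block and the GC trend removed (adjusted p = 0.0646 in limma). No single step passed, with log2 changes of 1.36 (standard error 0.53, limma, adjusted p = 0.18) to F140 and -2.17 (standard error 0.53, limma, adjusted p = 0.0551) to P5.

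A variant of miR-20a with the substitutions U21A and G23A, oan-miR-20a-5p_R+3, read 111, 48 and 24 units at F91 and 385, 225 and 229 units at F140. It read 67, 70 and 35 units at P5 and 79, 60 and 68 units at P173. Here F140 hearts overlapped no other age. The variant rose 5.36-fold to F140 (log2 change 2.42, standard error 0.53, limma, adjusted p = 0.0191) and fell 4.94-fold to P5 (log2 change -2.30, standard error 0.53, limma, adjusted p = 0.0434). The rise was not called without F91 replicate 2, F91 replicate 3 or F140 replicate 1 (adjusted p up to 0.0966), nor with F91 and F140 alone and the replicate number as a block (0.115, or 0.0631 with the GC trend removed), and the fall was lost in 10 of the 12 fits without 1 array and with the block over all ages and the GC trend removed (0.0515). The exact and the variant probe of miR-20a thus gave the same order of F140 above P5, but differed in which steps were called.

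miR-92a, at the 3′ end of the transcript, had another profile. bta-miR-92a read 3236, 4430 and 3530 units at F91 and 1427, 1899 and 1701 units at F140. It read 1128, 768 and 1243 units at P5 and 867, 482 and 1083 units at P173. The F91 hearts lay above all others, the F140 hearts lay above those of P5 and P173, and P5 and P173 overlapped. From F91 to P173 miR-92a fell 4.82-fold (log2 change -2.27, standard error 0.32, limma, adjusted p = 5.1e-04), and this call was kept in all 26 alternatives. None of the single steps passed on this probe: F140 against F91 gave a log2 change of -1.15 (standard error 0.32, limma, adjusted p = 0.0548), P5 against F140 gave -0.70 (adjusted p = 0.368) and P173 against P5 gave -0.42 (adjusted p = 0.698).

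The other probe of miR-92a carries 3 further bases at the 5′ end (sha-miR-92a_L+3R+4). It read 3130, 4577 and 3608 units at F91, 1540, 2108 and 1741 at F140, 1225, 947 and 1219 at P5 and 942, 1090 and 925 at P173. The order of ages was that of the bovine probe, with the same overlap of P5 and P173. It fell by 1.92 from F91 to P173 on the log2 scale (standard error 0.25, limma, adjusted p = 2.6e-04) and, unlike the bovine probe, was called from F91 to F140 (log2 change -1.06, standard error 0.25, limma, adjusted p = 0.0261). The latter call was lost in 11 of 28 alternatives, among them the fits without F91 replicate 2 or 3 or F140 replicate 1 or 3 (adjusted p up to 0.131). It was also lost when the scanner intensities were normalised afresh (log2 change -0.94, adjusted p = 0.0689 in limma), with the block over all ages and the GC trend removed (0.0546) and with F91 and F140 alone and the block (0.115), while the log2 change stayed between -1.36 and -0.92 in all 28. On the scanner scale, before normalisation, bta-miR-92a averaged 2252 units at F91 and 2140 at F140, while the means after birth were 1396 units (P5) and 1390 units (P173). The F91 scans were dimmer as a whole, with a 90th percentile of 328 to 793 units against 835 to 1508 at F140, so these means are not comparable levels.

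**Figure D2:**
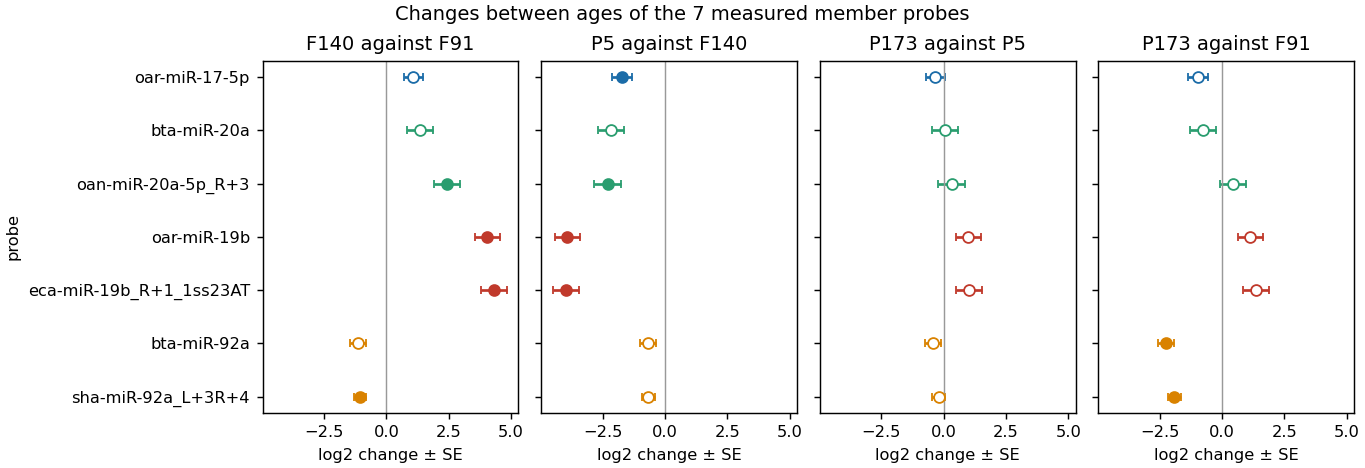
Fitted log2 change with its standard error (horizontal bars) of the 7 measured member probes in 4 contrasts between ages, with filled points for an adjusted p of at most 0.05 in limma. The miR-19b probes lie at 4.05 and 4.31 for F140 against F91 and at -3.91 and -3.99 for P5 against F140, and the miR-92a probes at -2.27 and -1.92 for P173 against F91. The miR-19b sizes rest on F91 and P5 values below or near background.

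Counted over all 15 member probes, 4 changed from F91 to F140, 3 higher and 1 lower, against 3.85% of all probes higher and 1.68% lower (5.53% called). The 3 higher were both probes of miR-19b and the variant of miR-20a. With 1 probe a name, 1 of 6 was called. From F140 to P5 4 of 15 were lower and none was higher, where 0.971% of all probes were lower and 1.81% were called. With 1 probe a name, 2 of 6 were lower there. From P5 to P173 limma called 0 of 15 against 1.59% of all probes, with 2 members at an unadjusted p under 0.05, also without moderation of the variance, beside 10.9% of all probes at that unadjusted p. From F91 to P173 2 of 15, both probes of miR-92a, were lower, against 3.53% of all probes lower and 6.76% called. A further fit kept only the 1122 probes that reached 32 units on 3 or more arrays, among them 7 members. It called 5 of 7 from F91 to F140 (19.4% of the 1122) and 5 of 7 from F140 to P5 (7.4%). From P5 to P173 it called 0 of 7 (6.15%). From F91 to P173 it called 2 of 7, beside 25.2% of the 1122, a similar share. These 7 probes stand for 4 names, and the members were not tested as a set. The median log2 change of the 15 member probes was 1.41 from F91 to F140, where that of all probes was 0.07. It was -0.81 from F140 to P5, -0.33 from P5 to P173 and -0.98 from F91 to P173, beside medians of 0, -0.16 and 0.01 over all probes. These medians include the 8 probes near background, whose log2 values are unsteady. The medians of 1.41 and -0.81 are themselves values of such probes, oan-miR-19a-3p_R+1_1ss23AC and ssc-miR-18a_R+1_1ss10TA, and do not describe the measured probes. F140 and F91 arrays enter several of these contrasts, so the contrasts are not independent.

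Whether the members of the transcript changed alike was tested on the log2 ratio of each probe to bta-miR-92a on the same array, in which a factor common to an array cancels. The ratio of miR-17 to miR-92a was -3.62 ± 0.77 (SD, n = 3) at F91 and -1.39 ± 0.50 at F140, then -2.42 ± 0.77 at P5 and -2.33 ± 0.35 at P173. That of miR-20a was -4.37 ± 1.20, -1.86 ± 0.53, -3.34 ± 1.12 and -2.87 ± 0.36 at these ages. That of miR-19b was -2.51 ± 0.58 at F140 and -4.33 ± 0.72 at P173, and none is given for F91 and P5, where miR-19b was not above background. For miR-17 and miR-20a the mean ratio was lowest at F91 and highest at F140, and for miR-19b it was higher at F140 than at P173.

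The profile over age differed from that of miR-92a for 5 of the 14 other member probes, against 32.2% of all probes and 78.8% of the 774 other brighter probes. A difference from miR-92a was thus common on the array and not particular to the transcript. The adjusted p of limma's F-test was 1.8e-04 for oar-miR-19b and 1.3e-04 for its equine variant, fits that include miR-19b values below background, and 0.00218 for the variant of miR-20a, 0.0309 for miR-20a and 0.0186 for miR-17. The calls of miR-19b and of the miR-20a variant were kept in all 25 alternatives. That of miR-17 was lost in 6 of 25, among them the fits without F91 replicate 2 or 3 or F140 replicate 1 (adjusted p up to 0.0884) and the fit with the replicate block and the GC trend removed (0.0592). That of miR-20a was lost in 8 of 25, also without F140 replicate 3 (adjusted p up to 0.12) and with that block and no GC trend (0.109). For the other miR-92a probe the test gave an adjusted p of 0.881. Between F91 and F140 the log2 ratio to miR-92a rose by 2.23 for miR-17 (standard error 0.52, limma, adjusted p = 0.00756) and by 2.51 for miR-20a (standard error 0.64, limma, adjusted p = 0.0129). No such change is given for miR-19b, which was below background at F91.

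**Figure D3:**
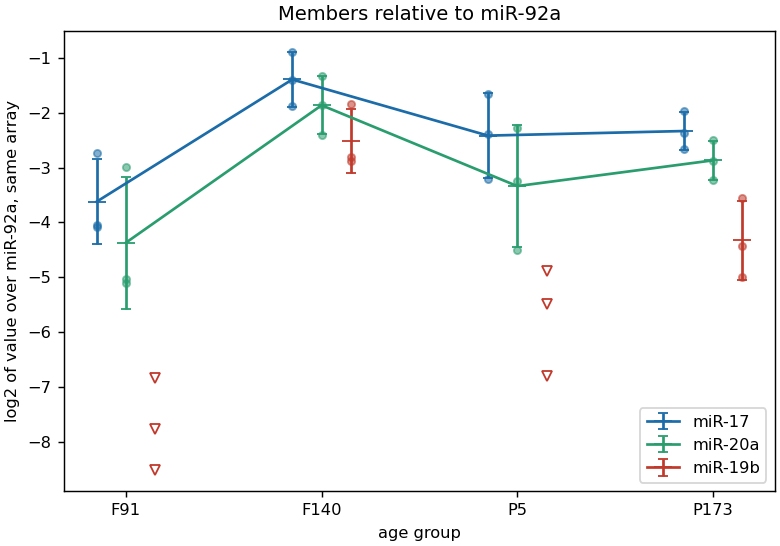
Log2 of the value of miR-17, miR-20a and miR-19b over that of miR-92a on the same array (points, 1 per heart), with mean and SD of the 3 hearts of each age, and open triangles without a mean where miR-19b was not above background. The means of miR-17 and miR-20a are highest at F140 (-1.39 and -1.86) and lowest at F91 (-3.62 and -4.37), and that of miR-19b is -2.51 at F140.

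The paralogous miR-106a-363 and miR-106b-25 transcripts hold miRNA with the same seeds, and 19 probes of 7 names (miR-106a, miR-18b, miR-20b, miR-363, miR-106b, miR-93 and miR-25) were read beside the members. The closest are shown with their seeds in capitals, to set beside miR-17 and miR-92a:
miR-106a: aAAAGUGCuuacagugcaggu
miR-20b: cAAAGUGCucacagugcaggua
miR-106b: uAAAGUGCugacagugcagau
miR-93: cAAAGUGCuguucgugcaggua
miR-25: AUUGCACuugucucggucuga
The listed ovine miR-25 begins 1 base later than miR-92a, so its seed is shown from its first base. miR-106a differs from miR-17 at C1A and miR-20b at U10C, counted from the 5′ end of miR-17.

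miR-25 shares the seed of miR-92a and had its highest values at F91 too. oar-miR-25 read 3423, 3854 and 3672 units at F91, 1555, 1900 and 2009 at F140, 1159, 1009 and 1331 at P5 and 1038, 1031 and 1116 at P173. F91 hearts were above all others, F140 hearts above those of P5 and P173, and the latter overlapped. It fell 3.44-fold from F91 to P173 (log2 change -1.78, standard error 0.23, limma, adjusted p = 2.5e-04). It also fell from F91 to F140, by 1.01 (standard error 0.23, limma, adjusted p = 0.0236), a call lost without any 1 of F91 replicates 2 and 3 and F140 replicates 1, 2 and 3 (adjusted p up to 0.12) and with these ages alone and the replicate number as a block (0.115). The 3 other miR-25 probes with at least 32 units were not called from F91 to F140, with log2 changes of -0.48 (cgr-miR-25-3p, limma, adjusted p = 0.437), -0.74 (oar-miR-25_L-3, 0.153) and -0.55 (ptr-miR-25_2ss17GA20GC, 0.717). From F91 to P173 the first 2 of these were called (log2 changes of -1.77 and -1.70) and the last was not (-1.57, adjusted p = 0.131). No difference of the profile of oar-miR-25 from that of miR-92a was called (limma, adjusted p = 0.714), and the ratio of both had changes between 0.06 and 0.49 on the log2 scale in the 4 contrasts.

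miR-106a, miR-20b and miR-106b were, as miR-17 and miR-20a, highest at F140. oar-miR-106a read 574, 245 and 254 units at F91, 877, 545 and 778 at F140, 238, 264 and 124 at P5 and 159, 131 and 208 at P173. Here F91 replicate 1 lay within the range of the F140 hearts, as it did for miR-20a. miR-106a fell 3.63-fold from F140 to P5 (log2 change -1.86, standard error 0.42, limma, adjusted p = 0.0408), a call that was lost in 10 of 12 fits without 1 array and with the replicate block and the GC trend removed (0.0529). Over the 12 arrays its log2 values had a Pearson correlation of 0.991 with those of miR-17, a description of probes that differ by little in sequence and share every array. bta-miR-20b read 506, 228 and 222 units at F91, 575, 359 and 488 at F140, 155, 196 and 108 at P5 and 103, 66 and 163 at P173. No contrast of miR-20b was called, P5 against F140 having an adjusted p of 0.0782 in limma and P173 against F91 0.0568.

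oar-miR-106b read 208, 83 and 59 units at F91, 402, 348 and 339 at F140, 132, 154 and 36 at P5 and 85, 49 and 82 at P173. F140 hearts overlapped no other age, yet no contrast was called (limma, adjusted p = 0.0845 to F140 and 0.0985 to P5). miR-93, of the same seed and from the transcript of miR-106b and miR-25, was not highest at F140, with means of 260 ± 104 units (SD, n = 3) at F91 and 195 ± 4.36 at F140, then 110 ± 18.8 at P5 and 74.7 ± 17.4 at P173. It fell 3.33-fold from F91 to P173 (limma, adjusted p = 0.0118). bta-miR-363, which also has the seed of miR-92a, averaged 79.3 ± 23.6 units at F91, 107 ± 19.5 at F140 and 33.7 ± 6.81 at P5. Unlike miR-92a and miR-25, it had its highest mean at F140, where its values overlapped those of F91. At P173 it was not above background, and no contrast of miR-363 was called. miR-18b was below background at every age.

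**Figure D4:**
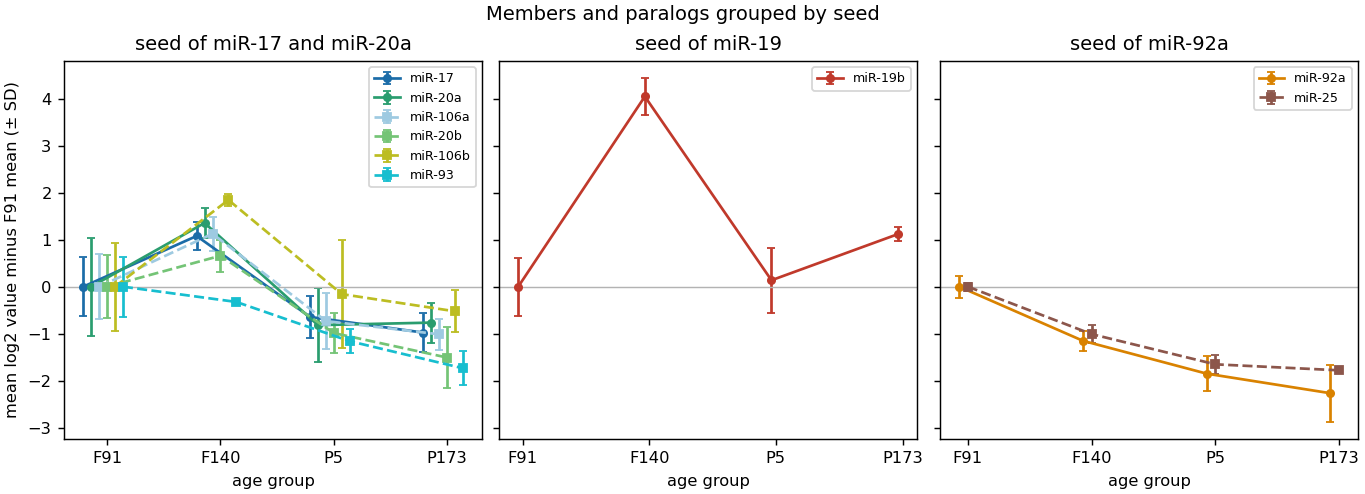
Mean log2 value minus the F91 mean (± SD over 3 hearts) by age, for members (solid lines) and paralogs (dashed lines) that share a seed. In the first panel all but miR-93 are highest at F140, miR-19b peaks at 4.05 over F91 values that were below background, and miR-92a and miR-25 both decline, to -2.27 and -1.78 at P173. The paralog miR-363, which also has the seed of miR-92a, is not plotted, and its mean was highest at F140.

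Among the 19 paralog probes, 7 were called over the 4 ages, beside 8.7% of all probes. With 1 probe a name, 4 of 7 were called. From F91 to F140 1 was lower, from F140 to P5 1 was lower, from P5 to P173 limma called 0 (1 at an unadjusted p under 0.05, also without moderation, beside 10.9% of all probes) and from F91 to P173 5 were lower, none being higher in any of these contrasts. The background shares are those of all probes given for the members. The 2 miRNA outside both lists whose profiles over the 12 arrays were most like that of miR-19b were miR-374a (Pearson correlation 0.926, of 359 names compared) and miR-424 (0.907), followed by an anonymous probe, PC-5p-9731 (0.898). miR-424 averaged 135 ± 128 units (SD, n = 3) at F91 and 1788 ± 234 at F140, then 136 ± 46.5 at P5 and 104 ± 60.4 at P173. Those most like miR-92a were a chimpanzee miR-92 variant (0.952), miR-181a-2 (0.947) and miR-92b (0.942). The chimpanzee probe was no member only because its name, miR-92, lacks the letter a. Whether it reads miR-92a itself was not tested. By name it and miR-92b both belong to the family of miR-92a. These correlations describe probes read on the same arrays and carry no test.

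GC content moved with the change before birth. Across the 775 brighter probes, the deviation of the log2 value from the probe's average over all arrays had a slope per 10% of GC content of 0.18 ± 0.36 (SD, n = 3) in F91 hearts, -0.32 ± 0.15 in F140 hearts, 0.04 ± 0.11 in P5 hearts and 0.10 ± 0.14 in P173 hearts. At F91 the slope was -0.17 for replicate 1, 0.17 for replicate 2 and 0.55 for replicate 3, and replicate 1 had the highest F91 values of miR-17 and of both probes each of miR-19b and miR-20a. With the slope removed from every array, both steps of oar-miR-19b were called (limma, adjusted p = 0.00162 to F140 and 0.00288 to P5), but their size is not given, since its F91 and P5 values were below background. The variant of miR-20a rose by 1.67 to F140 in that fit (standard error 0.42, limma, adjusted p = 0.0354). On the log2 scale miR-17 fell by 1.57 from F140 to P5 (adjusted p = 0.0408) and bta-miR-92a fell by 2.23 from F91 to P173 (adjusted p = 5.1e-04). The counts of member probes called in the 4 contrasts were again 4, 4, 0 and 2 in that fit. Of all probes 5.08%, 1.97%, 1.29% and 6.86% were called there. The difference of miR-20a from miR-92a was no longer called.

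**Figure D5:**
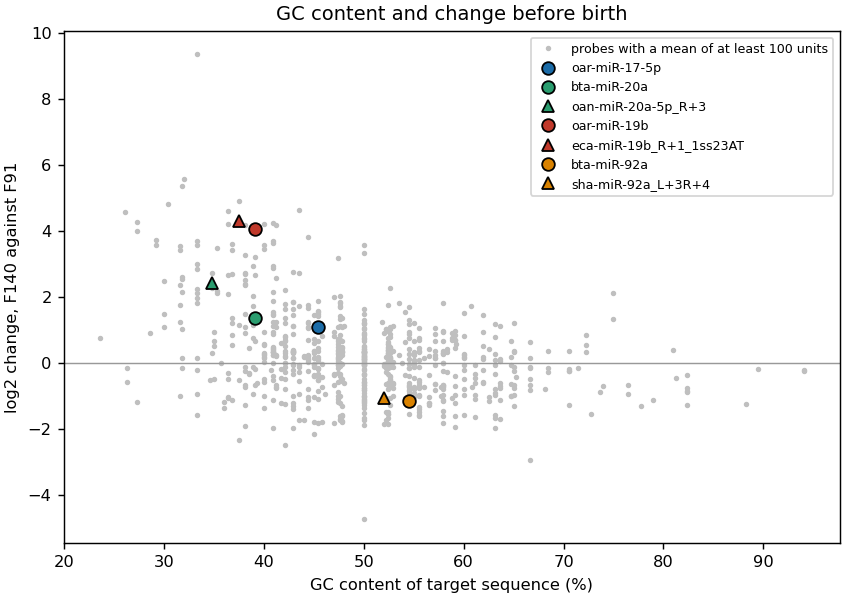
Log2 change from F91 to F140 against the GC content (%) of the target sequence for the brighter probes (mean of 100 units or more, grey) and the measured member probes (coloured). The miR-19b probes lie at 4.05 and 4.31 near 39.1% GC, and bta-miR-92a at -1.15 and 54.5% GC. The miR-19b sizes rest on F91 values below or near background.

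Markers of cell types moved with age as well. The summed values of 4 miRNA of cardiac muscle (miR-1, miR-133a, miR-208b and miR-499) were 12919 to 14104 units at F91 and 31926 to 41482 at F140, with 3 of 4 higher at F140, then 17423 to 29979 at P5 and 25833 to 32692 at P173. miR-133a made up most of this sum at F91 (mean 11164 units) and was not called to F140 (mean 10792 units, limma, adjusted p = 0.968). Such sums add intensities of different probes and do not give relative amounts. miR-208b was near 0 at F91 (0 to 5 units) and read 48 to 73 units at F140. The endothelial miR-126 was higher at F140 too, with 6044 to 8703 units against 923 to 4211 at F91, 2197 to 4476 at P5 and 3535 to 3963 at P173. Of 3 red blood cell miRNA 1 was higher at F140 than at F91, of 4 of white blood cells and 2 of smooth muscle none was called, and of 3 of fibroblasts 1 was higher and 1 lower. Between F140 and P5 no marker was called. The liver and pancreas markers miR-122 and miR-375 summed to at most 73 units on any array. miR-92a fell from F91 to P173. Over that span the sum of the 3 fibroblast miRNA went from 7460 to 10674 units down to 969 to 1376 units. At F91 this sum was mainly miR-214, with a mean of 7475 units. Only miR-214 was called lower (log2 change -3.65, limma, adjusted p = 7.7e-06). miR-199a, with means of 1206 units at F91 and 466 at P173, was not called (limma, adjusted p = 0.388). miR-21 did not fall (log2 change 0.61, limma, adjusted p = 0.682). Over the same span 2 of 4 muscle miRNA were higher, and so was miR-486 of red blood cells (log2 change 2.73, limma, adjusted p = 2.1e-05), while of the white blood cell miRNA miR-150 was higher (log2 change 2.03, limma, adjusted p = 0.00361) and miR-155 lower (log2 change -1.82, limma, adjusted p = 0.0195). The part of these shifts in the profiles of miR-19b, miR-17, miR-20a and miR-92a was not tested.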

How the data were processed

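Total RNA of the left ventricle was hybridised to a custom array of 3098 probes (10044 spots, 80 of them empty). The authors deposited the intensity of each spot without background correction, together with normalised tables. In the table used here the score of each probe is the authors' background-corrected, lowess-normalised value, combined over spots and rounded to whole numbers. The intensity in a second deposited table is the same value with decimals (largest difference 0.50). The 55 control probes were left out, and no filter on dim probes was applied to the 3091 tested. Aligners and genome builds do not apply to these values, and no coordinates are given.

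limma 3.58.1 (R 4.3.3) was applied to log2(value + 0.1) of the 12 arrays in a single fit (lmFit, eBayes with a variance trend), giving an F-test for the 4 ages and 4 contrasts. Where all 3 arrays of an age read under 32 units, folds were taken against 32 units and are lower bounds. Python 3.11.15, numpy 2.4.6 and pandas 2.3.3 served for the tables. The test was tried on simulated data for P173 against F91 over 3091 probes. Changes were put only into probes with a mean of 100 units or more, 50 of each size. Of log2 changes of 1, 2, 3 and 4, 32%, 78%, 80% and 98% were called, with 5 false calls. Recovery for dimmer probes, such as those of miR-18a and miR-19a, was not simulated. Precision was limited by having 3 arrays per age.

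For each name 1 probe stood for the miRNA, chosen in the order of exact ovine, exact bovine, other exact and brightest variant. Named were these 6, all member probes with at least 32 units on all 3 arrays of an age, the main probes of the paralogs and the 3 names most like miR-19b and miR-92a by Pearson correlation, with at least 100 units at their brightest age. The members, the paralog and marker lists and the tests were chosen with earlier results of these data known. Of the cell type markers miR-124 was not analysed here. Target sequences and GC content came from the array's annotation in the scanner files. The p-values set the difference between ages against the spread between animals within an age, pooled over the 4 ages and moderated across probes. They take the animals as independent. As a check of pairing, deviations from the age mean of same-numbered arrays were correlated: those of F91 and F140 were above 0.1 for all 3 numbers (0.14 to 0.28 over all probes, 0.49 to 0.51 over the brighter ones), a hint from the data and not from the design, and no other 2 ages had this. Alternatives covered the pseudocount, dim values, the variance model, normalisation, GC content, the replicate number as a block and the samples left out.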

Additional observations from a re-analysis of the deposited data

How the results depend on the processing

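For 41 results of the 7 measured member probes, 22 of which were called, the alternative settings gave 1067 outcomes. Of these, 960 kept the call or its absence, 91 lost a call, 16 gained one and 0 changed direction. Each setting was fitted to all probes at once and read for many results, so the outcomes are not independent. The 960 include results that were not called and stayed so. Losses were uneven among the calls of P5 against F140. That of oar-miR-17-5p was lost in 16 of 26 and that of the miR-20a variant in 15 of 26, while both of miR-19b were kept in all 26. The member counts were 7 over the 4 ages, 4 for F140 against F91, 4 for P5 against F140, 0 for P173 against P5, 2 for P173 against F91 and 5 relative to miR-92a. Without the variance trend they were 3 over the 4 ages, 2 for F140 against F91 and 2 for P5 against F140. Of all probes 3.33%, 1.2% and 0.194% were then called. With only the ages compared in the fit they were 2 and 2 for these contrasts, with 0.291% and 0.809% of all probes called. P5 against F140 also gave 2 with values under 32 units set to 32 (1.49% of all probes called) and without moderation of the variance (0.485%). A replicate block on values without the GC trend gave 2 there too (1.46%). Relative to miR-92a the count was 9 of 14 with a pseudocount of 1 (48.3% of all probes called), 13 with values set to 32 units (96%), 13 from scanner intensities (97.2%) and 3 with that block and no GC trend (30.5%), beside 5 and 32.2%. In the fits above, the calls left for F140 against F91 and P5 against F140 at a count of 2 were those of miR-19b. With 1 array left out the counts ran from 4 to 9 over the 4 ages, from 3 to 7 relative to miR-92a, from 2 (without F140 replicate 1, F91 replicate 2 or F91 replicate 3) to 7 (without F91 replicate 1) for F140 against F91, from 2 to 5 for P5 against F140 and from 2 to 3 for P173 against F91, and stayed at 0 for P173 against P5. In the fits without 1 array, 5.92% to 12.7% of all probes were called over the 4 ages and 25.9% to 31.7% relative to miR-92a. The share was 1.62% to 9.84% for F140 against F91 and 0.129% to 4.14% for P5 against F140. It was 0.388% to 2.46% for P173 against P5 and 4.79% to 9.06% for P173 against F91. The 171 calls of F140 against F91 over all probes became 9 with these ages alone and 304 without F91 replicate 1. The 56 of P5 against F140 became 4 without P5 replicate 3 and 135 from scanner intensities.

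Same-numbered F91 and F140 arrays deviated together in all 3 pairs, and those of no other 2 ages did so: of all 18 same-numbered pairs, 4 had a correlation above 0.1 over all probes (range -0.22 to 0.28) and 7 over the brighter probes (range -0.52 to 0.51), and the best match across ages was the array of the same number in 11 and 13 of 36 comparisons. With the replicate number as a block over all ages the member counts were 7, 4, 3, 0, 2 and 5 in the order above. The shares of all probes called were 8.31%, 5.69%, 1.88%, 1.78%, 6.41% and 31.3%. With F91 and F140 alone and this block, a choice made after seeing the data, 0 members and 0 probes in all were called in limma, and with the GC trend removed as well 2 members, both of miR-19b, and 93 probes. Dim members could not be resolved, as 7 probes never reached 32 units.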
